A study of Homo sapiens with 16 samples.

Results

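Cholesterol synthesis and its control by the sterol regulatory element binding proteins (SREBP) were described through 31 genes, chosen by name from pathway knowledge and found by symbol among the 78986 features of the expression table. Earlier results of these data were known when the list was drawn up, so its counts beside all tested genes are descriptions. All 31 had at least 1 count per 1000000 assigned reads (CPM) in each of 16 libraries, and all 31 were among the 16218 genes that passed the filter on low values. They hold 8 enzymes that lead from acetyl-CoA to the isoprenoids, 3 enzymes of squalene and lanosterol, 9 enzymes that turn lanosterol into cholesterol, 7 genes of the SREBP factors and their processing, and 4 genes of sterol transport, storage and receptor turnover. RNA was sequenced from T47D, a long-established line of human breast cancer cells that is luminal in type and carries the estrogen receptor, in 4 groups of 4 libraries. The groups were FAH knockout cells given abemaciclib, control guide cells given abemaciclib, FAH knockout cells given vehicle, and control guide cells given vehicle. FAH encodes fumarylacetoacetate hydrolase, the last enzyme of tyrosine breakdown, and abemaciclib inhibits the cell cycle kinases CDK4 and CDK6, to which the series' title ties FAH through resistance. Abemaciclib was given at 500 nM for 3 days. All 4 groups grew in high-glucose medium with bovine serum, a source of lipoprotein cholesterol. The sources used here do not give the guides, nor whether knockout cells came from a single clone. Separate cultures are not named in the labels either, so p-values set group differences only against the spread among these libraries. That spread may be technical.

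Cells build cholesterol from acetyl-CoA by way of mevalonate, isoprenoids, squalene and lanosterol. SREBP factors sit in the endoplasmic reticulum, bound to SCAP. When membrane sterol is low, SCAP escorts them to the Golgi, where the proteases MBTPS1 and MBTPS2 release the part that enters the nucleus and switches on genes of sterol synthesis and uptake. When sterol is high, the INSIG proteins hold SCAP back. The INSIG1 gene is itself a target of SREBP, which makes its mRNA a common readout of the pathway.

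The libraries held 9915773 to 11963094 assigned reads, so 1 CPM stood for 9.92 to 11.96 reads. FAH mRNA had 5.03 to 6.79 CPM in knockout cells and 22.6 to 25.8 CPM in control cells under abemaciclib, and 6.27 to 7.02 CPM in knockout cells and 25.1 to 28.2 CPM in control cells under vehicle, lower in every knockout library, as labelled. All 8 luminal markers were detected, and they did not move one way. Under both treatments knockout cells had a higher mean CPM of KRT8, KRT18, KRT19 and EPCAM, and a lower one of GATA3, FOXA1, ESR1 and PGR, than control cells. KRT8 averaged 6323 CPM in knockout cells and 3363 CPM in control cells under abemaciclib, while GATA3 averaged 1301 CPM in knockout cells and 1562 CPM in control cells. The summed level, most of it keratins, was higher in knockout cells. It ranged from 15250 to 15518 CPM in knockout cells and from 10778 to 11258 CPM in control cells under abemaciclib, and from 12701 to 13103 CPM in knockout cells and from 9100 to 9266 CPM in control cells under vehicle. The part of these markers in the results was not tested. The 3 basal markers summed to at most 0.577 CPM and the 3 leukocyte markers to at most 3.32 CPM, while the 4 stromal and endothelial markers summed to 41.4 to 61.4 CPM, of which COL1A1 alone made 40.6 to 60.6 CPM. CPM are shares of a library's reads, so a change in RNA per cell is not seen in them. In bulk RNA, fewer cells of a type and less RNA per cell cannot be told apart. Reads of HMGCS1, GGPS1, CYP51A1, SREBF1 and MBTPS2 came out as whole numbers in 8 or fewer of the 16 libraries, so part of their reads may be shared with other genes and their values are uncertain.

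Promoter sequence is shown for the genes on which the results turn most, since SREBP factors act at promoters through a sterol regulatory element beside a CCAAT box. The runs below are the 250 bases before the annotated start in RefSeq on GRCh38.p14, 5′ to 3′ on the gene's strand, with matches to the element (TCACNCCAC) and to the CCAAT box (CCAAT) on either strand in capitals. HMGCS1, LSS and INSIG1 were higher in knockout cells, TMEM97 was lower, and SREBF2 held the one match to the element. They lie at chr5:43313413-43313662 on the minus strand, chr21:46228775-46229024 on the minus strand, chr7:155297628-155297877 on the plus strand, chr17:28318950-28319199 on the plus strand and chr22:41832855-41833104 on the plus strand, in the order printed.
HMGCS1: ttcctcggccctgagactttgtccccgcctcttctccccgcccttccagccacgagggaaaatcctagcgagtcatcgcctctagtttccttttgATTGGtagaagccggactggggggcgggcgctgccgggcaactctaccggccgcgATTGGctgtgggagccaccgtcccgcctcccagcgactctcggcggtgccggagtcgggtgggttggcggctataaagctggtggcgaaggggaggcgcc
LSS: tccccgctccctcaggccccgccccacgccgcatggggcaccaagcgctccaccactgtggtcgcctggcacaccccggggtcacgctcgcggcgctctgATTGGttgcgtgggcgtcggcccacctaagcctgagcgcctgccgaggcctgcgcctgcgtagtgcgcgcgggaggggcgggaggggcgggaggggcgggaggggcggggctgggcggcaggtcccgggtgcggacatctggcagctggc
INSIG1: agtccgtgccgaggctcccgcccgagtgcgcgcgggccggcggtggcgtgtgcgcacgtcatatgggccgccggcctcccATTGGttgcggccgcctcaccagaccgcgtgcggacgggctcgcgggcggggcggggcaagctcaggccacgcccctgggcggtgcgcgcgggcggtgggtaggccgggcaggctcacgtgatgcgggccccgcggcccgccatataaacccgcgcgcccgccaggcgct
TMEM97: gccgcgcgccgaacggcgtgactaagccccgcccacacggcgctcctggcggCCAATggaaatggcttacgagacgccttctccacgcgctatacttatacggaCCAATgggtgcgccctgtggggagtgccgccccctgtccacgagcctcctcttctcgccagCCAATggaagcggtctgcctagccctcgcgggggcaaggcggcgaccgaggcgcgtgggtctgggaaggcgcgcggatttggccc
SREBF2: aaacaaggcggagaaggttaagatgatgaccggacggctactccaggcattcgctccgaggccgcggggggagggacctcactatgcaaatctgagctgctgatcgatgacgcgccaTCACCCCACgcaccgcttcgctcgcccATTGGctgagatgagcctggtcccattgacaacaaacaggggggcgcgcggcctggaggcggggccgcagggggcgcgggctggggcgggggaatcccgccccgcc
Of the 31 genes, 28 had a promoter in the RefSeq table, and ACAT2, FDFT1 and SQLE were named only. The strict element was found in 1 of 28 (3.57%), against 0.875% of the 27305 promoters in the table. CCAAT stood in 18 of 28 (64.3%), against 33.0% of all promoters. The GC box GGGCGG, which Sp1-type factors bind, stood in 23 of 28 (82.1%), against 42.3%. The E-box CACGTG stood in 3 of 28 (10.7%), against 6.49%. Both strands were searched, and none of these 4 motifs contains another. TMEM97, which was lower in knockout cells, held 3 CCAAT matches, while HMGCS1 held 2 and LSS and INSIG1 held 1 each. Among the 12 matched genes that were higher in knockout cells under both treatments, 9 held CCAAT, as did 9 of the other 16. A match of letters is a description and no measure of binding. The search took exact letters within 250 bases only, so a promoter without a match may still hold a variant of the element.

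**Figure D1:**
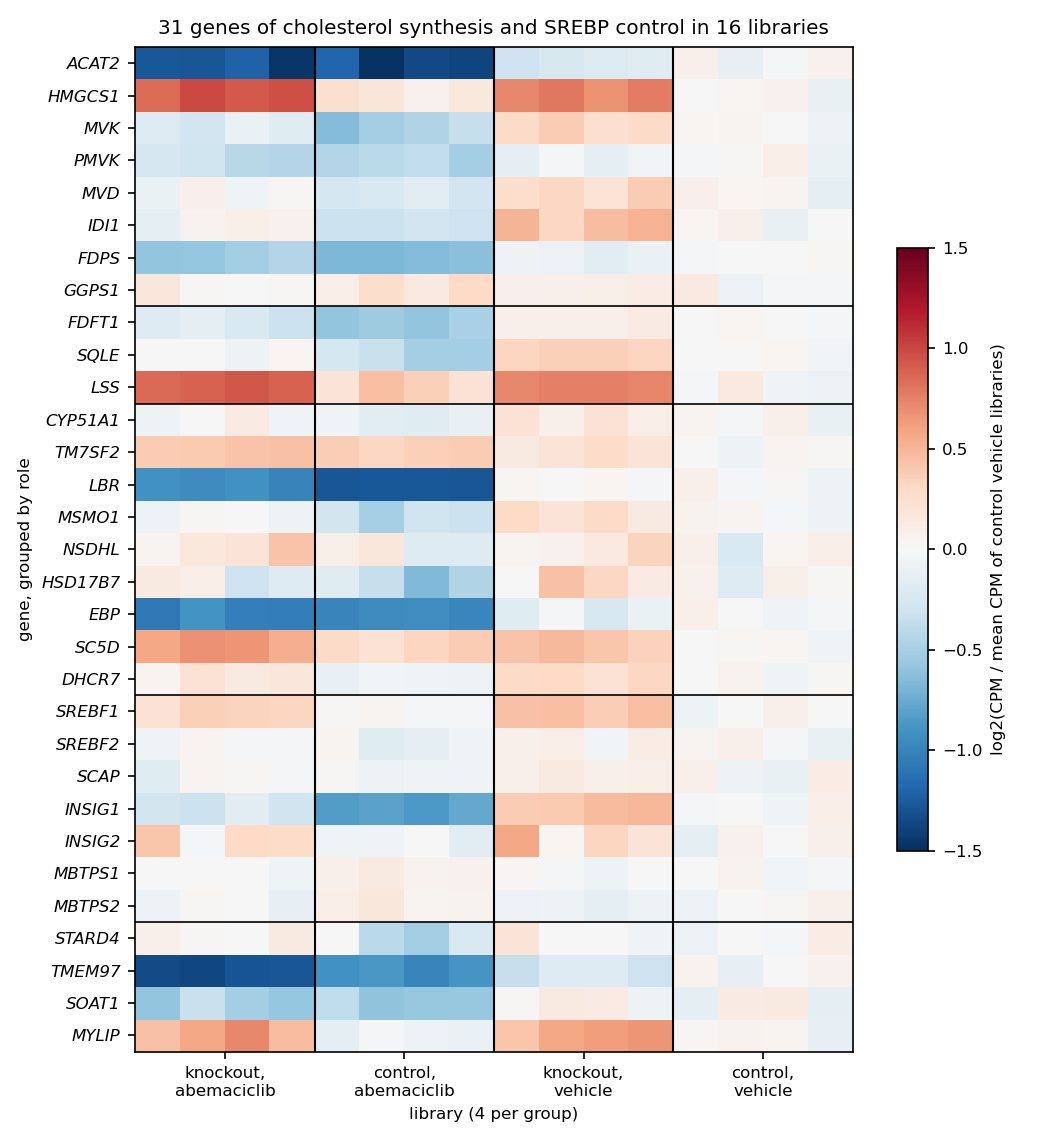
Heat map of the 31 genes (rows, grouped by role) in the 16 libraries (columns, 4 per group), where color gives log2 of CPM over the mean CPM of the control vehicle libraries. HMGCS1 and LSS were above that mean in all 8 knockout libraries, while ACAT2, LBR, EBP and TMEM97 were below it in all 8 abemaciclib libraries.

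The first question was how the pathway's mRNAs differed between FAH knockout and control cells. Much of the pathway was higher in knockout cells than in control cells, led by HMGCS1, LSS and MYLIP, under either treatment. Differences were tested with limma on log2(CPM + 1), the scale of every log2 value here, and a gene was called at a Benjamini-Hochberg adjusted p under 0.05 over all tested genes. Under abemaciclib 17 of 31 genes were higher and 3 lower in knockout cells, where 18.6% of all tested genes were called higher and 11.3% lower. Under vehicle 14 were higher and 4 lower, where 24.6% of all tested genes were called higher and 13.1% lower. The counts of lower genes among the 31 were near these shares under both treatments. The same shares stand beside the counts by role that follow. The median log2 difference of the 31 was 0.22 under abemaciclib and 0.15 under vehicle, beside 0.04 and 0.06 over all tested genes. On leaving out 1 library, the count of lower genes under abemaciclib was 1 without control abemaciclib replicate 2 or knockout abemaciclib replicate 4, and that under vehicle was 2 without knockout vehicle replicate 3 or control vehicle replicate 1. The 2 comparisons share no library. Both called 13 of the 31 higher (12.1% of all tested genes) and 1 lower (6.21%), and 1 was called in opposite directions (0.758%). Groups did not overlap in CPM for 15 genes higher and 3 lower under abemaciclib (16.5% and 10.1% of all tested genes) and for 14 higher and 3 lower under vehicle (22.2% and 12.7%). The split depends on how libraries are scaled. As deposited, 62.2% of all calls under abemaciclib and 65.3% under vehicle were higher in knockout cells, and after rescaling by median-of-ratios size factors these shares were 47.8% and 48.6%. With that rescaling 15 of the 31 were higher and 4 lower under abemaciclib, and 13 higher and 6 lower under vehicle. Of all 16218 tested genes, 2178 were then higher and 2376 lower under abemaciclib, and 2818 higher and 2979 lower under vehicle. The summed level of the 31 genes was 1801 ± 34.7 CPM in knockout cells and 1589 ± 10.8 CPM in control cells under abemaciclib, and 2107 ± 18.1 CPM in knockout cells and 1891 ± 17.5 CPM in control cells under vehicle (SD, n = 4 each).

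**Figure D2:**
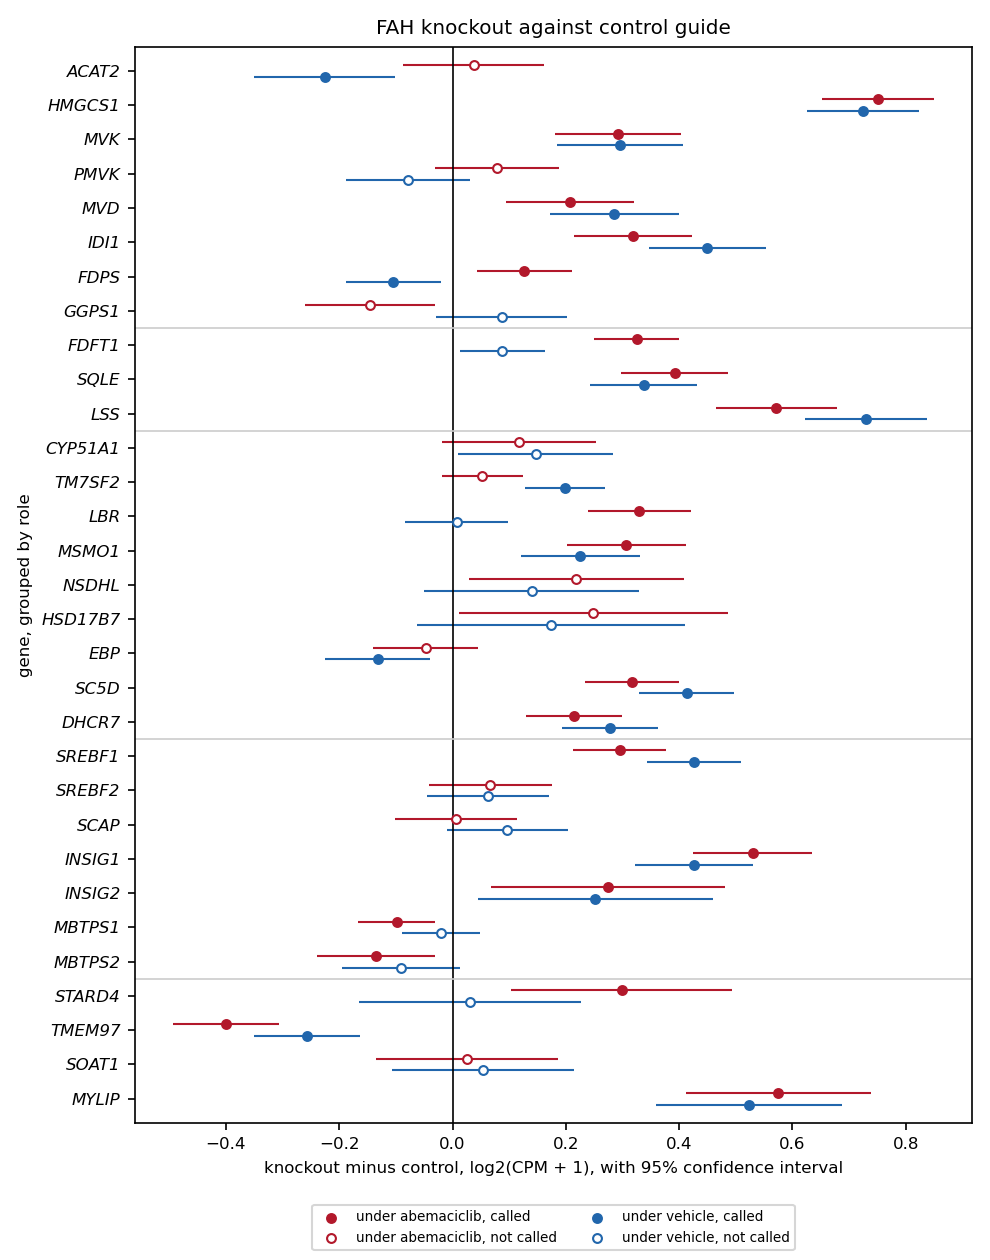
Difference of knockout minus control cells in log2(CPM + 1) for each gene (rows, grouped by role), under abemaciclib (red) and under vehicle (blue), with 95% confidence intervals not adjusted for the number of genes; filled points were called. HMGCS1 lies at 0.75 and 0.72 and LSS at 0.57 and 0.73, while TMEM97 lies at -0.40 and -0.26.

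Among the enzymes from acetyl-CoA to the isoprenoids, 5 of 8 were higher in knockout cells under abemaciclib and 4 were higher and 2 lower under vehicle. HMGCS1, which makes HMG-CoA, had 70.8, 78.5, 75.0 and 77.3 CPM in knockout cells, against 47.04, 44.9, 41.6 and 44.1 CPM in control cells under abemaciclib. Under vehicle it had 65.6, 68.5, 63.3 and 67.3 CPM in knockout cells, against 39.99, 40.6, 41.4 and 36.7 CPM in control cells. Every knockout library lay above every control library, and the knockout mean was 169.8% of the control mean under abemaciclib and 167% under vehicle. The log2 differences were 0.75 ± 0.05 (SE, limma adjusted p = 2.8e-14) and 0.72 ± 0.05 (5.65e-14). HMGCS1 was among the genes with reads that may be shared, so its level is uncertain. IDI1, which interconverts the isoprenoid building blocks, had 63.7, 73.1, 75.2 and 74.0 CPM in knockout cells, against 56.7, 56.5, 58.0 and 56.9 CPM in control cells under abemaciclib. Under vehicle IDI1 had 101, 88.0, 97.6 and 101 CPM in knockout cells, against 72.4, 74.5, 65.2 and 70.6 CPM in control cells. The groups did not overlap under either treatment, and the log2 differences were 0.32 ± 0.05 and 0.45 ± 0.05 (SE, limma adjusted p = 8.6e-06 and 1.1e-08). MVK, which phosphorylates mevalonate, averaged 41.3 ± 2.1 CPM in knockout cells and 33.6 ± 2.96 CPM in control cells under abemaciclib, and 58.2 ± 2.11 and 47.2 ± 1.76 CPM in knockout and control cells under vehicle (SD, n = 4 each). MVD is a decarboxylase that acts after MVK and PMVK. It averaged 34.5 ± 1.92 CPM in knockout cells and 29.8 ± 1.16 CPM in control cells under abemaciclib (SD, n = 4 each). Under vehicle MVD averaged 42.8 ± 2.17 CPM in knockout cells and 34.9 ± 2.28 CPM in control cells (SD, n = 4 each). MVK and MVD were called higher under both treatments, with log2 differences of 0.29 and 0.21 under abemaciclib and 0.30 and 0.29 under vehicle.

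The remaining enzymes of this stretch were not called higher under both treatments. ACAT2, the thiolase that joins acetyl-CoA units, had 44.7, 46.98, 48.0 and 48.9 CPM in knockout cells, against 58.5, 50.8, 54.2 and 57.9 CPM in control cells under vehicle. Every knockout library was below every control library there (log2 difference -0.23 ± 0.06, SE, limma adjusted p = 0.0037). Under abemaciclib the ACAT2 groups overlapped, at 22.3 ± 1.60 CPM in knockout cells and 21.8 ± 1.82 CPM in control cells (SD, n = 4 each), and ACAT2 was not called. FDPS, which makes farnesyl pyrophosphate, was the gene called in opposite directions. It had 59.8, 60.1, 63.4 and 66.4 CPM in knockout cells, against 56.4, 56.2, 57.3 and 58.1 CPM in control cells under abemaciclib (log2 difference 0.13 ± 0.04, SE, limma adjusted p = 0.018). Under vehicle it had 85.3, 84.9, 80.0 and 84.1 CPM in knockout cells, against 89.1, 90.2, 89.3 and 91.1 CPM in control cells (log2 difference -0.10 ± 0.04, SE, limma adjusted p = 0.043). Neither FDPS call is firm. Under abemaciclib it ended without knockout abemaciclib replicate 4 (limma adjusted p = 0.094), and over the changes of scaling or fit that ended it the adjusted p was 0.051 to 0.21. Under vehicle it ended without any 1 of the 4 control vehicle libraries or of knockout vehicle replicates 2, 3 and 4 (limma adjusted p = 0.052 to 0.15), and without the filter or the trend (0.061). PMVK, the next kinase after MVK, was not called in knockout against control cells under either treatment as deposited, and was called lower under vehicle after median-of-ratios rescaling (log2 difference -0.14, limma adjusted p = 0.035). GGPS1, which makes geranylgeranyl pyrophosphate, had log2 differences of -0.15 under abemaciclib (limma adjusted p = 0.0501) and 0.09 under vehicle. It was called lower under abemaciclib after rescaling (-0.19, adjusted p = 0.014) and without any 1 of control vehicle replicates 1 and 2, control abemaciclib replicates 1 and 3 and knockout abemaciclib replicate 1 (adjusted p = 0.019 to 0.0498).

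All 3 enzymes of squalene and lanosterol were higher in knockout cells under abemaciclib, and 2 of 3 under vehicle. LSS, lanosterol synthase, had 66.4, 68.0, 70.5 and 68.0 CPM in knockout cells, against 42.3, 50.5, 47.2 and 42.9 CPM in control cells under abemaciclib. Under vehicle it had 60.9, 62.1, 62.6 and 61.5 CPM in knockout cells, against 36.6, 40.8, 35.5 and 34.9 CPM in control cells. The groups did not overlap, with log2 differences of 0.57 ± 0.05 (SE, limma adjusted p = 1.7e-10) and 0.73 ± 0.05 (3.4e-13). SQLE, squalene epoxidase, a rate-limiting step of the later pathway, had 81.4, 81.7, 77.3 and 83.2 CPM in knockout cells, against 67.8, 64.6, 56.9 and 57.0 CPM in control cells under abemaciclib. Under vehicle SQLE had 102, 104, 104 and 101 CPM in knockout cells, against 81.5, 81.7, 82.9 and 78.7 CPM in control cells. Its log2 differences were 0.39 ± 0.05 and 0.34 ± 0.05 (SE, limma adjusted p = 3.6e-08 and 4.6e-07). FDFT1, squalene synthase, had 171, 176, 166 and 156 CPM in knockout cells, against 129, 135, 129 and 140 CPM in control cells under abemaciclib (log2 difference 0.32 ± 0.04, SE, limma adjusted p = 1.5e-08). Under vehicle FDFT1 averaged 207 ± 3.64 CPM in knockout cells and 195 ± 3.73 CPM in control cells (SD, n = 4 each), did not overlap between the groups, and just missed the call (log2 difference 0.09 ± 0.04, SE, limma adjusted p = 0.059). It was called there without any 1 of control abemaciclib replicates 1 and 4 and knockout abemaciclib replicate 4, with quantile normalization, and with only the 2 groups in the fit (limma adjusted p = 0.017 to 0.04998).

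**Figure D3:**
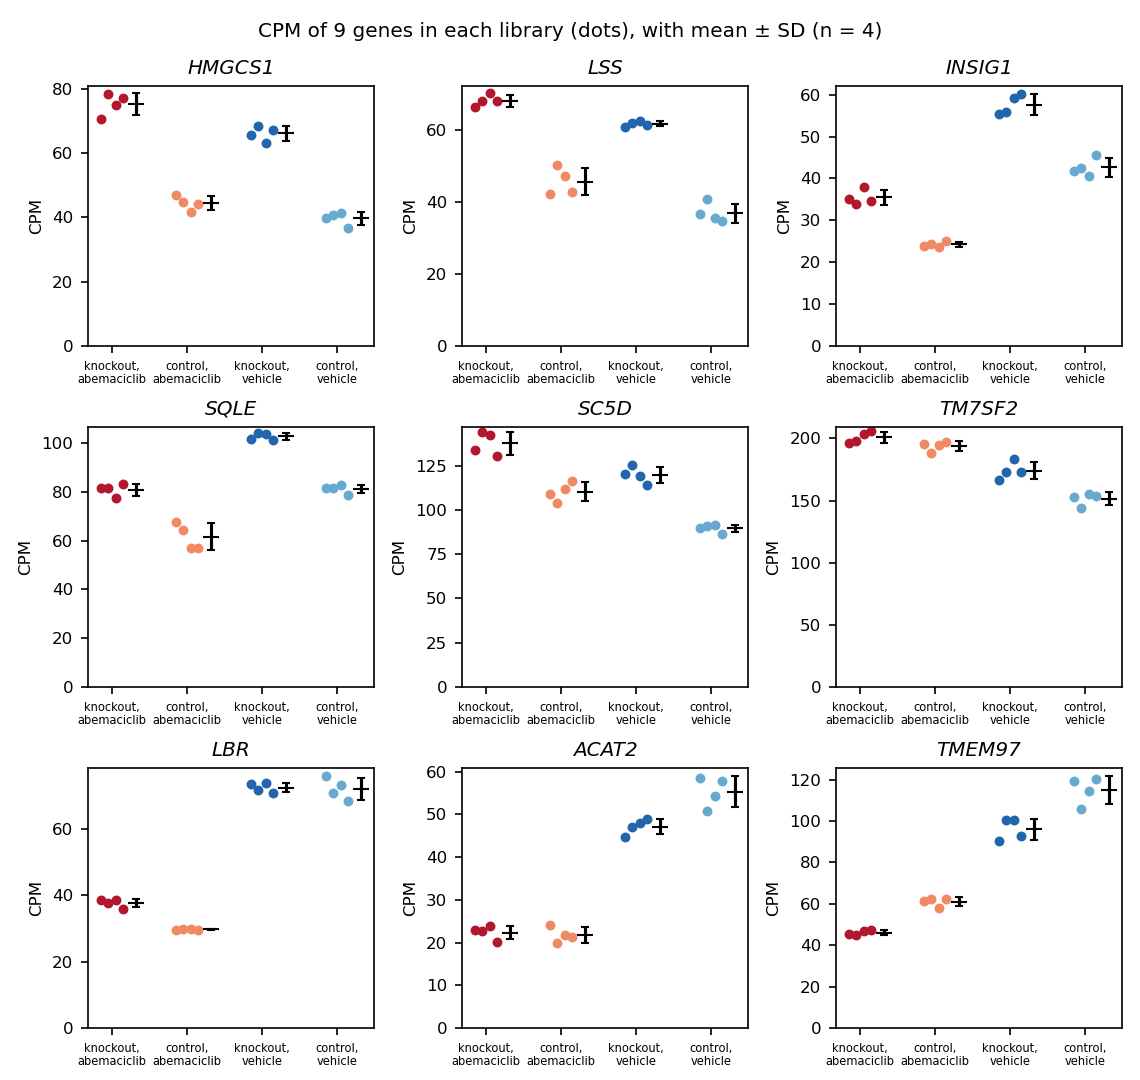
CPM of 9 genes (panels, linear axes from 0) in each library (dots) of the 4 groups, with mean and SD (n = 4) beside them. HMGCS1, LSS, INSIG1, SQLE and SC5D were higher in knockout than in control cells under both treatments, and LBR and ACAT2 were lower under abemaciclib in both genotypes.

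Of the 9 enzymes after lanosterol, 4 were higher in knockout cells under abemaciclib, and 4 were higher and 1 lower under vehicle. MSMO1, SC5D and DHCR7 were higher under both. SC5D, the desaturase near the end of the pathway, had 134, 144, 142 and 130.4 CPM in knockout cells, against 109, 104, 112 and 116 CPM in control cells under abemaciclib. Under vehicle it had 120.2, 125, 119 and 114 CPM in knockout cells, against 89.5, 90.8, 91.2 and 86.6 CPM in control cells. The groups did not overlap, with log2 differences of 0.32 ± 0.04 and 0.41 ± 0.04 (SE, limma adjusted p = 2.2e-07 and 6.9e-10). MSMO1 acts after CYP51A1 in the removal of methyl groups. It averaged 48.5 ± 1.62 CPM in knockout cells and 39.1 ± 2.64 CPM in control cells under abemaciclib (SD, n = 4 each). Under vehicle MSMO1 averaged 58.3 ± 3.15 CPM in knockout cells and 49.7 ± 2.06 CPM in control cells (SD, n = 4 each). DHCR7, the reductase that yields cholesterol, averaged 85.0 ± 4.29 CPM in knockout cells and 73.0 ± 1.56 CPM in control cells under abemaciclib, and 93.4 ± 2.72 CPM in knockout cells and 76.9 ± 2.77 CPM in control cells under vehicle (SD, n = 4 each). The log2 differences of MSMO1 and DHCR7 were 0.31 and 0.21 under abemaciclib and 0.23 and 0.28 under vehicle.

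TM7SF2 and LBR reduce the same double bond of the sterol ring, and LBR also tethers chromatin to the nuclear envelope. TM7SF2 was called higher in knockout cells under vehicle, and LBR under abemaciclib. TM7SF2 had 167, 173, 183 and 173 CPM in knockout cells, against 153, 144, 156 and 154 CPM in control cells under vehicle (log2 difference 0.20 ± 0.04, SE, limma adjusted p = 2.8e-05). Under abemaciclib TM7SF2 averaged 201 ± 4.41 CPM in knockout cells and 194 ± 4.09 CPM in control cells (SD, n = 4 each), and the groups overlapped. LBR had 38.5, 37.6, 38.5 and 36.0 CPM in knockout cells, against 29.6, 29.9, 29.9 and 29.6 CPM in control cells under abemaciclib (log2 difference 0.33 ± 0.04, SE, limma adjusted p = 4.7e-07). Under vehicle LBR averaged 72.6 ± 1.47 CPM in knockout cells and 72.2 ± 3.29 CPM in control cells (SD, n = 4 each), a log2 difference of 0.01. EBP, a sterol isomerase, was called lower in knockout cells under vehicle, at 117 ± 7.69 CPM against 128 ± 5.04 CPM in control cells (SD, n = 4 each), and the groups overlapped (log2 difference -0.13 ± 0.05, SE, limma adjusted p = 0.021). That call ended on leaving out knockout vehicle replicate 1 or 3 or control vehicle replicate 1, without the filter and without the trend (limma adjusted p = 0.066 to 0.12). CYP51A1, the lanosterol demethylase, and NSDHL and HSD17B7, which act with MSMO1 in a later demethylation, were not called in either comparison. Their log2 differences were 0.12, 0.22 and 0.25 under abemaciclib and 0.15, 0.14 and 0.17 under vehicle. NSDHL was called higher under abemaciclib without control abemaciclib replicate 2 or knockout abemaciclib replicate 1 (limma adjusted p = 0.034 and 0.043).

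Of the 7 genes of the SREBP factors and their processing, 3 were higher and 2 lower in knockout cells under abemaciclib, and 3 were higher under vehicle. Under vehicle 0 were lower (limma, 0 at an unadjusted p under 0.05 as well, beside 2553 of all 16218 tested genes). SREBF1, whose products also drive fatty acid synthesis, had 88.3, 97.5, 96.2 and 94.97 CPM in knockout cells, against 77.2, 78.2, 75.5 and 75.5 CPM in control cells under abemaciclib. Under vehicle it had 104, 104, 98.8 and 104 CPM in knockout cells, against 72.3, 76.0, 80.1 and 76.6 CPM in control cells. The groups did not overlap, with log2 differences of 0.29 ± 0.04 and 0.43 ± 0.04 (SE, limma adjusted p = 6.9e-07 and 2.8e-10). SREBF2, the main factor for cholesterol genes, averaged 41.5 ± 1.03 CPM in knockout cells and 39.6 ± 2.66 CPM in control cells under abemaciclib, and 43.8 ± 2.13 CPM in knockout cells and 41.9 ± 2.29 CPM in control cells under vehicle (SD, n = 4 each). It was not called in either, and neither was SCAP. INSIG1 had 35.2, 34.0, 38.1 and 34.6 CPM in knockout cells, against 23.9, 24.4, 23.5 and 25.1 CPM in control cells under abemaciclib. Under vehicle INSIG1 had 55.3, 55.8, 59.2 and 60.3 CPM in knockout cells, against 41.8, 42.4, 40.6 and 45.7 CPM in control cells. All knockout libraries lay above all control libraries of the same treatment, with log2 differences of 0.53 ± 0.05 and 0.43 ± 0.05 (SE, limma adjusted p = 5.8e-10 and 3.9e-08). These measurements are of mRNA and hold no measure of SREBP cleavage or of sterol.

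The smaller calls of the processing genes were fragile. INSIG2 averaged 7.58 ± 0.93 CPM in knockout cells and 6.07 ± 0.29 CPM in control cells under abemaciclib, and 7.82 ± 1.29 CPM in knockout cells and 6.36 ± 0.43 CPM in control cells under vehicle (SD, n = 4 each), and the groups overlapped in both. Its log2 differences of 0.27 and 0.25 were called at limma adjusted p = 0.039 and 0.049. Under abemaciclib the call ended without any 1 of control replicates 1, 2 and 4 and knockout replicates 1, 3 and 4 (limma adjusted p = 0.057 to 0.13). Under vehicle it held without control abemaciclib replicate 1 or 4, knockout vehicle replicate 2, or knockout abemaciclib replicate 1 or 2, and ended without any 1 of the other 11 libraries (limma adjusted p = 0.052 to 0.24). Median-of-ratios rescaling also ended the INSIG2 calls, at adjusted p = 0.078 under abemaciclib and 0.14 under vehicle. MBTPS1 averaged 164 ± 3.36 CPM in knockout cells and 176 ± 4.09 CPM in control cells under abemaciclib (log2 difference -0.10, limma adjusted p = 0.024), and MBTPS2 averaged 34.6 ± 1.54 CPM in knockout cells and 38.1 ± 1.47 CPM in control cells (log2 difference -0.13, adjusted p = 0.044; SD, n = 4 each). MBTPS1 lost its call without control abemaciclib replicate 2 or knockout abemaciclib replicate 4 (limma adjusted p = 0.083 and 0.088), and MBTPS2 without control abemaciclib replicate 1 or 2 or knockout abemaciclib replicate 1 or 4 (0.064 to 0.14). Under vehicle MBTPS2 was called lower after rescaling alone (log2 difference -0.15, limma adjusted p = 0.018; quantile normalization, -0.14 and 0.029).

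Of the 4 genes of transport, storage and receptor turnover, 2 were higher and 1 lower in knockout cells under abemaciclib, and 1 was higher and 1 lower under vehicle. MYLIP, a ubiquitin ligase that marks lipoprotein receptors for breakdown, had 11.9, 13.1, 14.5 and 12.1 CPM in knockout cells, against 8.03, 8.67, 8.33 and 8.19 CPM in control cells under abemaciclib. Under vehicle it had 11.7, 13.2, 13.6 and 13.9 CPM in knockout cells, against 8.87, 9.12, 9.07 and 8.11 CPM in control cells. The groups did not overlap, with log2 differences of 0.58 ± 0.08 and 0.52 ± 0.08 (SE, limma adjusted p = 8.8e-07 and 3.2e-06). TMEM97, the sigma-type receptor that binds the sterol transporter NPC1, had 45.5, 44.7, 46.8 and 47.2 CPM in knockout cells, against 61.5, 62.5, 58.0 and 62.3 CPM in control cells under abemaciclib. Under vehicle TMEM97 had 90.5, 100.4, 100.4 and 92.7 CPM in knockout cells, against 120, 106, 114 and 120.4 CPM in control cells. Knockout libraries lay below control libraries throughout, with log2 differences of -0.40 ± 0.05 and -0.26 ± 0.05 (SE, limma adjusted p = 2.0e-08 and 3.1e-05). It was the gene called lower under both treatments. STARD4, which carries sterol through the cytosol, averaged 7.38 ± 0.34 CPM in knockout cells and 5.86 ± 0.95 CPM in control cells under abemaciclib (SD, n = 4 each), and the groups overlapped (log2 difference 0.30, limma adjusted p = 0.017). That call ended without control abemaciclib replicate 2 or 3 or knockout abemaciclib replicate 4 (limma adjusted p = 0.052 to 0.086). SOAT1, which esterifies cholesterol for storage, was not called in either comparison.

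The second question was what abemaciclib did to the pathway in each genotype. Most called genes were lower under the drug, most of all ACAT2, LBR, TMEM97 and EBP, while HMGCS1, LSS, TM7SF2 and SC5D were higher. In knockout cells 4 of 31 genes were higher and 17 lower, where 11% of all tested genes were called higher and 27.4% lower. In control cells 6 were higher and 16 lower, where 19.6% of all tested genes were called higher and 31.1% lower. The counts of higher genes among the 31 were near these shares in both genotypes. These shares also stand beside the counts by role below. The median log2 difference of the 31 was -0.15 in knockout cells and -0.22 in control cells, beside -0.07 and -0.05 over all tested genes. Both genotypes called 4 of the 31 higher (9.22% of all tested genes) and 14 lower (21.5%). Called in opposite directions were 0 by limma (0.29% of all tested genes). Groups did not overlap for 4 genes higher and 16 lower in knockout cells (10.4% and 25.5% of all tested genes) and for 5 higher and 14 lower in control cells (16.1% and 26.7%). This split also depends on the scaling. As deposited, 28.6% of all calls in knockout cells and 38.7% in control cells were higher under the drug, and after median-of-ratios rescaling the shares were 53.1% and 51.1%. With that rescaling 6 of the 31 were higher and 14 lower in knockout cells, and 7 higher and 14 lower in control cells. Of all 16218 tested genes, 3225 were then higher and 2846 lower in knockout cells, and 4182 higher and 3998 lower in control cells.

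**Figure D4:**
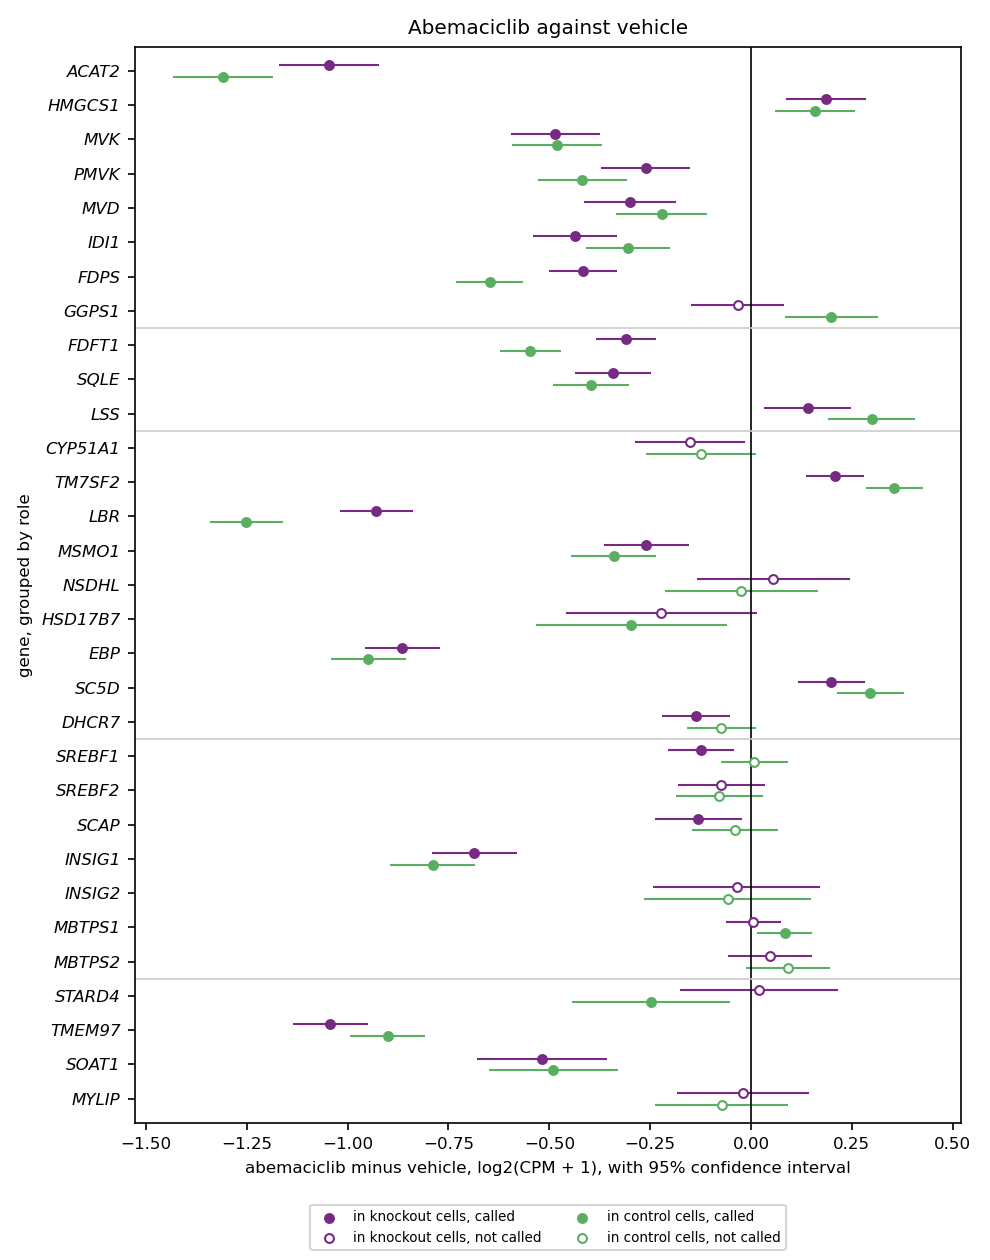
Difference of abemaciclib minus vehicle in log2(CPM + 1) for each gene (rows, grouped by role), in knockout cells (purple) and control cells (green), with 95% confidence intervals not adjusted for the number of genes; filled points were called. LBR lies at -0.93 and -1.25, ACAT2 at -1.05 and -1.31, TM7SF2 at 0.21 and 0.35.

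Among the enzymes from acetyl-CoA to the isoprenoids, 1 was higher and 6 lower under abemaciclib in knockout cells, and 2 were higher and 6 lower in control cells. In the per-library values above, ACAT2 had 20.1 to 23.8 CPM under abemaciclib and 44.7 to 48.9 CPM under vehicle in knockout cells, and 19.8 to 24.2 CPM under abemaciclib and 50.8 to 58.5 CPM under vehicle in control cells. The drug mean was 47.4% of the vehicle mean in knockout cells and 39.3% in control cells, with log2 differences of -1.05 ± 0.06 and -1.31 ± 0.06 (SE, limma adjusted p = 5.2e-16 and 8.7e-19). ACAT2 overlaps TCP1 on the other strand, and the strand setting of the counting is not given in the sources used here. Reads in the stretch that both genes share therefore cannot be assigned with certainty. FDPS fell by 0.42 in knockout cells and by 0.65 in control cells, MVK fell by 0.48 in each, and PMVK, MVD and IDI1 fell in both, by 0.22 to 0.44 on the log2 scale. HMGCS1 went the other way, with log2 differences of 0.19 ± 0.05 in knockout cells and 0.16 ± 0.05 in control cells (SE, limma adjusted p = 0.0026 and 0.0067). GGPS1 was called higher under the drug in control cells, at 35.5 ± 2.24 CPM under abemaciclib and 30.8 ± 2.07 CPM under vehicle (SD, n = 4 each), with overlapping groups (log2 difference 0.20, limma adjusted p = 0.0037), and was not called in knockout cells.

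Within the squalene and lanosterol step, FDFT1 and SQLE were lower and LSS higher under abemaciclib in both genotypes. FDFT1 fell by 0.31 in knockout cells and by 0.55 in control cells, and SQLE fell by 0.34 and by 0.40 in knockout and control cells on the log2 scale. No vehicle library of these 2 genes overlapped a drug library of the same genotype. LSS rose by 0.14 in knockout cells and by 0.30 in control cells (limma adjusted p = 0.033 and 1.3e-05). The LSS call in knockout cells ended without knockout vehicle replicate 1, 2 or 4 or knockout abemaciclib replicate 2, 3 or 4 (limma adjusted p = 0.054 to 0.094), and without the filter (0.11) or the trend (0.075).

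Of the enzymes after lanosterol, 2 were higher and 4 lower in each genotype. The paired reductases parted. LBR had 36.0 to 38.5 CPM under abemaciclib and 70.8 to 73.9 CPM under vehicle in knockout cells, and 29.6 to 29.9 CPM under abemaciclib and 68.4 to 76.1 CPM under vehicle in control cells. Its drug mean was 51.9% of the vehicle mean in knockout cells and 41.2% in control cells (log2 differences -0.93 ± 0.04 and -1.25 ± 0.04, SE, limma adjusted p = 2.4e-18 and 4.7e-22). TM7SF2 had 197 to 206 CPM under abemaciclib and 167 to 183 CPM under vehicle in knockout cells, and 188 to 198 CPM under abemaciclib and 144 to 156 CPM under vehicle in control cells. All drug libraries lay above all vehicle libraries of their genotype (log2 differences 0.21 ± 0.04 and 0.35 ± 0.04, SE, limma adjusted p = 1.1e-05 and 2.0e-10). EBP averaged 63.6 ± 3.60 CPM under abemaciclib and 117 ± 7.69 CPM under vehicle in knockout cells, and 65.7 ± 1.27 CPM under abemaciclib and 128 ± 5.04 CPM under vehicle in control cells (SD, n = 4 each). Its log2 differences were -0.86 and -0.95. SC5D rose by 0.20 and 0.30 and MSMO1 fell by 0.26 and by 0.34 on the log2 scale, each in knockout and control cells. DHCR7 was called lower in knockout cells (log2 difference -0.14, limma adjusted p = 0.0093), and the call ended without knockout abemaciclib replicate 1 (0.058) and after rescaling (0.47). HSD17B7 was called lower in control cells, at 2.40 ± 0.34 CPM under abemaciclib and 3.17 ± 0.27 CPM under vehicle (SD, n = 4 each), a level of few reads. That call (log2 difference -0.30, limma adjusted p = 0.033) ended without control vehicle replicate 1, 3 or 4 or control abemaciclib replicate 3 or 4 (0.059 to 0.12) and after rescaling (0.077). CYP51A1 was called lower in knockout cells without knockout abemaciclib replicate 3 and without the trend (limma adjusted p = 0.035 and 0.043), and was not called otherwise as deposited.

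Among the SREBP factors and their processing, 3 genes were lower in knockout cells, and 1 was higher and 1 lower in control cells. INSIG1 was called in both. Its drug mean was 61.5% of the vehicle mean in knockout cells and 56.8% in control cells, with log2 differences of -0.69 ± 0.05 and -0.79 ± 0.05 (SE, limma adjusted p = 4.4e-13 and 7.25e-15), and drug and vehicle libraries did not overlap. SREBF1 had a log2 difference of -0.12 in knockout cells (limma adjusted p = 0.015) and 0.01 in control cells. Its call in knockout cells ended without knockout abemaciclib replicate 1 (0.083) and after rescaling (log2 difference -0.03, 0.60). SCAP was called lower in knockout cells (-0.13, limma adjusted p = 0.048), and that call ended without control abemaciclib replicate 2 or 3, any 1 of the 4 knockout vehicle libraries, or knockout abemaciclib replicate 1 or 4 (0.0503 to 0.24), and after rescaling (0.61). MBTPS1 was called higher in control cells (0.08, limma adjusted p = 0.037), and that call ended without control vehicle replicate 1, 3 or 4 or control abemaciclib replicate 2 (0.063 to 0.12). SREBF2, INSIG2 and MBTPS2 were not called in either genotype. After rescaling MBTPS2 was called higher under the drug in both (log2 differences 0.14 and 0.16, limma adjusted p = 0.032 and 0.00816), and MBTPS1 in knockout cells (0.10, adjusted p = 0.026).

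Of the genes of transport, storage and receptor turnover, 2 of 4 were lower under abemaciclib in knockout cells and 3 of 4 in control cells. TMEM97 averaged 46.0 ± 1.16 CPM under abemaciclib and 96.0 ± 5.17 CPM under vehicle in knockout cells, and 61.1 ± 2.13 CPM under abemaciclib and 115 ± 6.80 CPM under vehicle in control cells (SD, n = 4 each). The log2 differences were -1.04 ± 0.05 and -0.90 ± 0.05 (SE, limma adjusted p = 1.9e-19 and 9.2e-18). SOAT1 had 11.6, 13.8, 12.3 and 11.7 CPM under abemaciclib, against 17.6, 19.2, 19.1 and 16.6 CPM under vehicle in knockout cells. In control cells SOAT1 had 13.5, 11.5, 11.8 and 11.8 CPM under abemaciclib, against 15.8, 18.9, 19.2 and 15.9 CPM under vehicle. Drug and vehicle libraries did not overlap, and the log2 differences were -0.52 and -0.49. MYLIP was not called in either genotype, at log2 differences of -0.02 and -0.07. STARD4 was called lower in control cells (log2 difference -0.25, limma adjusted p = 0.031), and the call ended without control vehicle replicate 2 or 4 or control abemaciclib replicate 2 or 3 (0.055 to 0.14) and after rescaling (0.10).

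Whether the drug's effect differed between genotypes was tested as an interaction, the drug difference in knockout cells minus that in control cells. By limma 4 of 31 genes had a higher and 0 a lower difference in knockout cells, where 4.68% of all tested genes were called higher and 6.16% lower. At an unadjusted p under 0.05 there were 5 and 5 of the 31, beside 1594 and 2208 of all 16218 tested genes. The share of all calls that were higher was 43.2% as deposited and 51% after rescaling, where the counts of the 31 genes were again 4 and 0. After rescaling 900 of all 16218 tested genes were called higher and 863 lower. The 4 genes all were lower under the drug in both genotypes, and less so in knockout cells. LBR had an interaction of 0.32 ± 0.06 (SE, limma adjusted p = 5.5e-04), FDFT1 of 0.24 ± 0.05 (0.0020), FDPS of 0.23 ± 0.06 (0.0068) and ACAT2 of 0.26 ± 0.09 (0.045). For FDPS and ACAT2 the knockout libraries were below the control libraries under vehicle and not under the drug. The ACAT2 call held without control vehicle replicate 2, control abemaciclib replicate 1 or knockout abemaciclib replicate 4, and ended without any 1 of the other 13 libraries (limma adjusted p = 0.0503 to 0.11). That call also ended without the filter and without the trend (limma adjusted p = 0.17 and 0.11). GGPS1 (-0.23, limma adjusted p = 0.058) and TM7SF2 (-0.15, 0.052) just missed a call. GGPS1 was called without control vehicle replicate 1, control abemaciclib replicate 1 or knockout abemaciclib replicate 1 (0.024 to 0.029), and TM7SF2 without control vehicle replicate 3, control abemaciclib replicate 2 or knockout vehicle replicate 1 (0.030 to 0.046). HMGCS1 and MVK had interactions of 0.03 and 0.00, with unadjusted 95% confidence intervals of -0.11 to 0.17 and -0.16 to 0.15. That of INSIG1 was 0.10, from -0.04 to 0.25.

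Genes around the pathway were read from 5 further lists. Of all tested genes, 18.6% were called higher and 11.3% lower in knockout cells under abemaciclib, and 24.6% and 13.1% under vehicle. Under the drug 11% were higher and 27.4% lower in knockout cells, and 19.6% and 31.1% in control cells. The interaction called 4.68% higher and 6.16% lower. Several counts of these short lists lie near those shares, and no list was tested as a set. Of 10 tested SREBP targets of fatty acid synthesis, 6 were higher in knockout cells under abemaciclib, and 5 were higher and 2 lower under vehicle. FASN, fatty acid synthase, averaged 339 CPM in knockout cells and 250 CPM in control cells under abemaciclib, and 378 CPM in knockout cells and 251 CPM in control cells under vehicle (log2 differences 0.44 and 0.59, limma adjusted p = 3.0e-12 and 1.3e-15). LPIN1, a phosphatidate phosphatase, had log2 differences of 0.46 and 0.81 (limma adjusted p = 0.0015 and 3.1e-07). Under the drug 5 of the 10 were lower in knockout cells, and 1 was higher and 5 lower in control cells. The desaturases FADS1 and FADS2 moved most, by -0.69 and -0.73 in knockout cells and by -0.78 and -0.91 in control cells on the log2 scale. FASN was the one of the 10 called in the interaction (-0.15, limma adjusted p = 0.040).

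Of 9 tested genes of sterol uptake and transport, 3 were higher and 3 lower in knockout cells under abemaciclib, and 2 were higher and 2 lower under vehicle. STARD5, a sterol carrier, had log2 differences of -0.69 and -0.73, and the lysosomal carrier NPC2 of 0.44 and 0.45. VLDLR, a lipoprotein receptor, was lower in knockout cells under abemaciclib (-0.45, limma adjusted p = 0.0075). Under the drug 3 were higher and 1 lower in knockout cells, and 2 were higher and 1 lower in control cells. There NPC2 rose by 0.22 and STARD3, which binds sterol on late endosomes, fell by 0.22 in knockout cells, and the receptor SCARB1 rose by 0.39 and STARD3 fell by 0.24 in control cells, on the log2 scale. The interaction called SCARB1 (-0.18) and TSPO (0.17), a mitochondrial cholesterol-binding protein.

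Of 7 tested genes of efflux, esterification and oxysterols, 1 was higher and 1 lower in knockout cells under abemaciclib, and 3 were higher under vehicle. CYP27A1, which makes an oxysterol, had log2 differences of 0.44 and 0.67 at levels of 0.977 and 0.452 CPM in knockout and control cells under abemaciclib, and of 1.69 and 0.693 CPM in knockout and control cells under vehicle. ABCG1, a sterol exporter, was higher in knockout cells under vehicle (0.45, limma adjusted p = 1.2e-04), and NCEH1, a cholesteryl ester hydrolase, was lower under abemaciclib (-0.30, adjusted p = 0.011). Under the drug 2 of the 7 were lower in knockout cells, CYP27A1 (-0.45) and NCEH1 (-0.40), and in control cells ABCG1 was higher (0.39) and LPCAT3, a phospholipid acyltransferase, lower (-0.35). Of 10 tested sensors and SREBP regulators, 2 were higher in knockout cells under abemaciclib and 3 under vehicle. ERLIN2, an INSIG-bound membrane protein, was among both (0.19 and 0.23), with SPRING1, which aids SREBP cleavage, under abemaciclib (0.19) and GRAMD1C, a sterol transfer protein, under vehicle (0.39). Under the drug 3 were higher and 4 lower in knockout cells, where GRAMD1C (-0.44) and PAQR3 (-0.35), a Golgi anchor of SCAP, moved most. In control cells 3 were higher and 3 lower, where ERLIN1 (-0.43), the partner of ERLIN2, moved most. Of 12 genes that use isoprenoids for ubiquinone, dolichol or protein prenylation, FNTB, a farnesyltransferase subunit, was lower in knockout cells under abemaciclib (-0.30), and RABGGTA (0.26) and RCE1 (0.17), which act in protein prenylation, were higher under vehicle. Under the drug 7 of the 12 were lower in knockout cells, led by COQ2 (-0.43), which builds ubiquinone, and FNTB (-0.40). In control cells 1 was higher and 5 lower, led by COQ2 (-0.49) and ICMT (-0.30), which methylates prenylated proteins, and the interaction called FNTB (-0.38, limma adjusted p = 0.0498).

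The tested genes whose log2(CPM + 1) followed INSIG1 most closely over the 16 libraries were, outside the 31, TP53I11 (Pearson r = 0.981), NQO1 (0.980), GNA11 (0.978), HES6 (0.976) and ENSG00000275895 (0.974). The last has no symbol of its own in the files. Among the 31 genes MVK (0.965), FDFT1 (0.955), SQLE (0.937), IDI1 (0.927) and MSMO1 (0.926) were closest, and MBTPS2 (-0.704), MBTPS1 (-0.689), TM7SF2 (-0.518) and GGPS1 (-0.462) ran against it. The 16 libraries are 4 groups and share those group differences. Once the group means were taken out, r with INSIG1 was 0.742 for TP53I11, 0.319 for NQO1, 0.304 for GNA11, 0.234 for HES6 and 0.170 for ENSG00000275895. Among the 5 closest of the 31 it was 0.117 for MVK, 0.103 for FDFT1, -0.372 for SQLE, 0.287 for IDI1 and -0.278 for MSMO1. These are descriptions over libraries and carry no test.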

How the data were processed

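The 16 libraries of T47D RNA took their groups and replicate numbers from the titles. A commercial service extracted the RNA and made cDNA libraries by tagmentation, per the labels' protocols. Per the submitters' processing notes, reads were aligned to GRCh38 with STAR 2.7.11, handled with SAMtools 1.22.1, counted with featureCounts of Subread 2.1.1 and summarised with MultiQC 1.32. Not given in the sources used here are the annotation release, the strand setting and what was done with multiply matching reads.

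The deposited values are CPM, made by the authors, in 1 table of 78986 features whose columns each sum to 1000000. The worth of 1 read (0.0836 to 0.101 CPM by library) was read from the steps between low values and gave the depth. Of the values above 0, 70.2 to 71.8% were whole reads within 0.02 reads, and 5270 of 16218 tested genes (32.5%) were whole in all 16 libraries, so no count test was run. The 92 spike-in features were left out. Genes that reached 1 CPM in 4 or more libraries were fitted as log2(CPM + 1) with limma 3.58.1 in R 4.3.3, all 16 libraries in 1 fit of 4 group means, with a mean-variance trend, two-sided tests, and p-values adjusted after Benjamini-Hochberg across all tested genes in each of 5 comparisons. The fit was tested on simulated data. A fold change on this scale understates that of low genes, and depth limits counting precision only.

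The members and gene lists were chosen with earlier results of these data known. By rule, all 31 members were described by role, with their counts. Outside them, the 2 called genes of each list with the largest change, the 5 genes most like INSIG1, and FAH as the check of the labels were named. COL1A1, TCP1, NPC1, the single luminal markers and the value of a named gene in a further comparison were added after values were seen. A gene that this rule would name is not reported here. Promoters came from RefSeq on GRCh38.p14. Alternatives were a pseudocount of 0.1, no filter, median-of-ratios rescaling, quantile normalization, no trend, only the groups compared, the replicate number as a block, and leaving out each library.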

Additional observations from a re-analysis of the deposited data

Results flagged for a closer look

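By Dixon's criterion 5 of 124 groups of 4 libraries had a library far from the others, where chance gives about 1 in 20, or 6.2. GGPS1 had 34.7 CPM in knockout abemaciclib replicate 1, and 31.3 CPM or less in the other replicates. MBTPS1 had 159 CPM in knockout abemaciclib replicate 4, and 166 CPM in the others. SOAT1 had 13.5 CPM in control abemaciclib replicate 1, and 11.5 to 11.8 CPM in the others. FDFT1 had 213 CPM in knockout vehicle replicate 4, and 205 to 206 CPM in the others. SREBF1 had 98.8 CPM in knockout vehicle replicate 3, and 104 CPM in the others. Each of the 5 fell in a different library.

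The effect of abemaciclib differed between knockout and control cells by the interaction test for LBR (log2 difference 0.32), ACAT2 (0.26), FDFT1 (0.24) and FDPS (0.23), as described above. The ACAT2 call was fragile and ended on leaving out any 1 of 13 libraries, and without the filter or the trend.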

How the results depend on the processing

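No result of the 31 genes that was called, as deposited or under an alternative, changed its sign. The count of lower genes in knockout cells under vehicle was 4, and 2 both with no filter on low values and without the trend. Leaving out 1 library gave 2 to 4 there (2 on omitting knockout vehicle replicate 3 or control vehicle replicate 1), beside 13 to 15 higher. Under abemaciclib it gave 14 to 17 higher and 1 to 4 lower in knockout cells, with 1 lower without control abemaciclib replicate 2 or knockout abemaciclib replicate 4. For the drug it gave 3 to 4 higher and 14 to 18 lower in knockout cells, and 5 to 6 higher and 14 to 16 lower in control cells. For the interaction it gave 3 to 4 higher and 0 to 1 lower. The lower interaction count was 1, not 0, with quantile normalization and with the replicate block, through TM7SF2 (limma adjusted p = 0.00884 and 0.046). The cause of these moves was not tested.

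Same-numbered libraries did not deviate together over all tested genes (correlations of -0.037 to 0.054). That cannot show whether they were handled together, and the numbers were not used as pairs in the main fit. The replicate block gave 16 lower genes for the drug in knockout cells, against 17, where SCAP lost its call (limma adjusted p = 0.057), and, beside the interaction count above, left the other counts of members as they were. Quantile normalization moved the median of all tested genes by 0.10 for the drug in knockout cells. Without the 5 genes whose reads were whole in 8 or fewer libraries, 15 of 26 were higher and 2 lower in knockout cells under abemaciclib, and 12 and 4 under vehicle. Of all tested genes 18.6% were higher and 11.3% lower under abemaciclib, and 24.6% and 13.1% under vehicle. Some of the 26 also had reads that were not whole, EBP most often, which was whole in 9 of the 16 libraries. Others, such as ACAT2 and SQLE, were whole in all 16. HSD17B7, STARD4, INSIG2 and CYP27A1, at few CPM, carry a large relative counting error.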
